A study of Mus musculus with 36 samples.

Results

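Animals of one genotype can differ from each other in hormones, feeding and time within the daily cycle, and such influences can reach every muscle through the blood or the nervous system. To see which genes moved together in a fast and a slow muscle, the tibialis anterior (TA) and soleus libraries that carry the same number in their labels were compared as pairs. Of the 36 RNA-seq libraries, 32 have a partner in the other muscle, which gives 16 pairs. Each pair is called by the label of its libraries with the muscle left out, where D3 stands for the mutants. WT contributed 8 pairs (WT_541, WT_545, WT_546, WT_547, WT_548, WT_551, WT_552 and WT_553) and ∆Ig3-MuSK, called mutant here, contributed 8 (D3_524 to D3_530 and D3_532). WT animals were unmodified C57BL/6 mice and the mutants carried, on the same background, a CRISPR-Cas9 deletion of the Musk exons that encode the third Ig-like domain of MuSK, that passed through the germline. All were 3 months old, and the labels name no treatment. Neither the sex, the time of day at dissection nor the feeding state is given in the sources used here. Whether a shared number marks a shared animal is not stated. The study describes its sampling as a single muscle from each animal, which could mean that no animal gave both muscles or that each animal gave a single TA and a single soleus. Pairs are therefore described as pairs of label numbers, and covariation as covariation by label number, not by animal.

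The libraries held between 43492062 and 78660422 counts each. The muscles matched their labels by myosin genes: Myh7, the slow myosin heavy chain, was at 1.90 to 36.3 CPM (counts scaled to the library's total) in the 16 TA libraries and at 6767 to 10823 CPM in the 16 soleus libraries, and Myh4, the fastest adult myosin, was at 11394 to 24794 CPM in TA and 160 to 6324 CPM in soleus. Musk counts do not check the deletion, because the counts are per gene and include the exons that remain. These are whole muscles, so a change in the number of cells of a type and a change in RNA per cell cannot be told apart. By the study's description each muscle of a group came from its own animal, which the labels themselves do not say.

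The molecular clock is a transcriptional loop present in nearly all cells. ARNTL (BMAL1) with CLOCK activates Per, Cry, Nr1d and Dbp genes through E-boxes, PER and CRY proteins repress that activity, and NR1D proteins repress Arntl. Glucocorticoids act through a nuclear receptor that raises genes such as Fkbp5 and Tsc22d3 in many tissues, and their blood level follows both the clock and stress. Fasting acts on muscle through low insulin, FoxO factors and fatty acids.

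For each of 18931 genes, log2 CPM was centered within genotype and muscle, so that neither the genotype nor the muscle difference enters, and the TA values were correlated with the soleus values over the 16 pairs. An exact permutation test reassigned soleus libraries among the pairs of their own genotype, and the p-values of all 18931 genes were adjusted by the Benjamini-Hochberg method. In 44 genes the TA and soleus values varied together at an adjusted p under 0.05, which is 0.232% of the genes tested, and all 44 had positive r. The titles also carry a replicate number, which mostly pairs other libraries than the label number does, and no source used here says which of them, if either, marks an animal. Within a muscle and genotype the replicate number rises in the order of the label number. It keeps all WT pairs except WT_541 and, of the mutant pairs, only D3_532, so it mainly pairs the mutant libraries anew. Pairs formed by the replicate number (18 pairs, of which 8 share the label number) gave 0 called genes and a median r of -0.00533 over all genes, with 523 genes of positive and 410 of negative r at an unadjusted exact permutation p under 0.05. Every call here therefore rests on the label number. With that number, no gene was called with negative r (0%). At an unadjusted p under 0.05, there were 1748 genes with positive r (9.23%) and 153 with negative r (0.808%), and the one other tool, the parametric test, called 1 gene with negative r. The median r over all genes was 0.144, and 68.4% of genes had r above 0. The typical gene was thus only weakly related between same-numbered muscles.

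The r of the 44 called genes ranged from 0.788 to 0.963, with a median of 0.878. Their r was positive in each genotype taken alone, with a median of 0.841 over the 8 WT pairs (lowest 0.614) and 0.933 over the 8 mutant pairs (lowest 0.663). After leaving out, for each gene, the 2 pairs farthest from the median TA value, r was at least 0.607, with a median of 0.826. The genes were chosen for high r over these same pairs, so these values are a description and not a further test. Over all genes tested the median r was 0.0582 over the WT pairs and 0.276 over the mutant pairs. The called genes were mostly genes with a wide spread and a moderate level. Of the 2525 genes with the largest spread among those above 5 CPM in each muscle, 30 were called (1.19%), against 0.232% of all genes. None of the 862 genes with more than 100 CPM in each muscle was called. Their median r was 0.188, and 9.86% had a positive r at an unadjusted exact permutation p under 0.05, against 0.144 and 9.23% of all genes. The lack of calls among these 862 genes thus does not show a weaker relation between muscles. Predicted genes or genes without an assigned name made up 12 of the 44, and 13 overlapped an exon of another gene, which matters because the libraries were not stranded. The shares of such genes among all genes tested are not given here, so these 2 counts only describe the called genes.

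The number of called genes depended on single pairs. It was lower than 30 without WT_548 (24 genes), WT_551 (25), WT_552 (23), D3_524 (28), D3_527 (18), D3_528 (16), D3_529 (17) or D3_532 (24). Of D3_527 and D3_528, one or the other was the highest mutant pair in each muscle for 17 of the 44 genes and the lowest in each for 11. Without both of these pairs 3 genes were called, which were 2610035D17Rik and Gm47283 of the 44 and Cdc42ep3, an effector of the GTPase CDC42. The r of the 44 genes over the 14 pairs left ranged from 0.696 to 0.958 with a median of 0.848. The genes were chosen for high r over all 16 pairs, 14 of which enter these values, so these are a description. The call after adjustment was lost for 42 of the 44 genes.

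**Figure D1:**
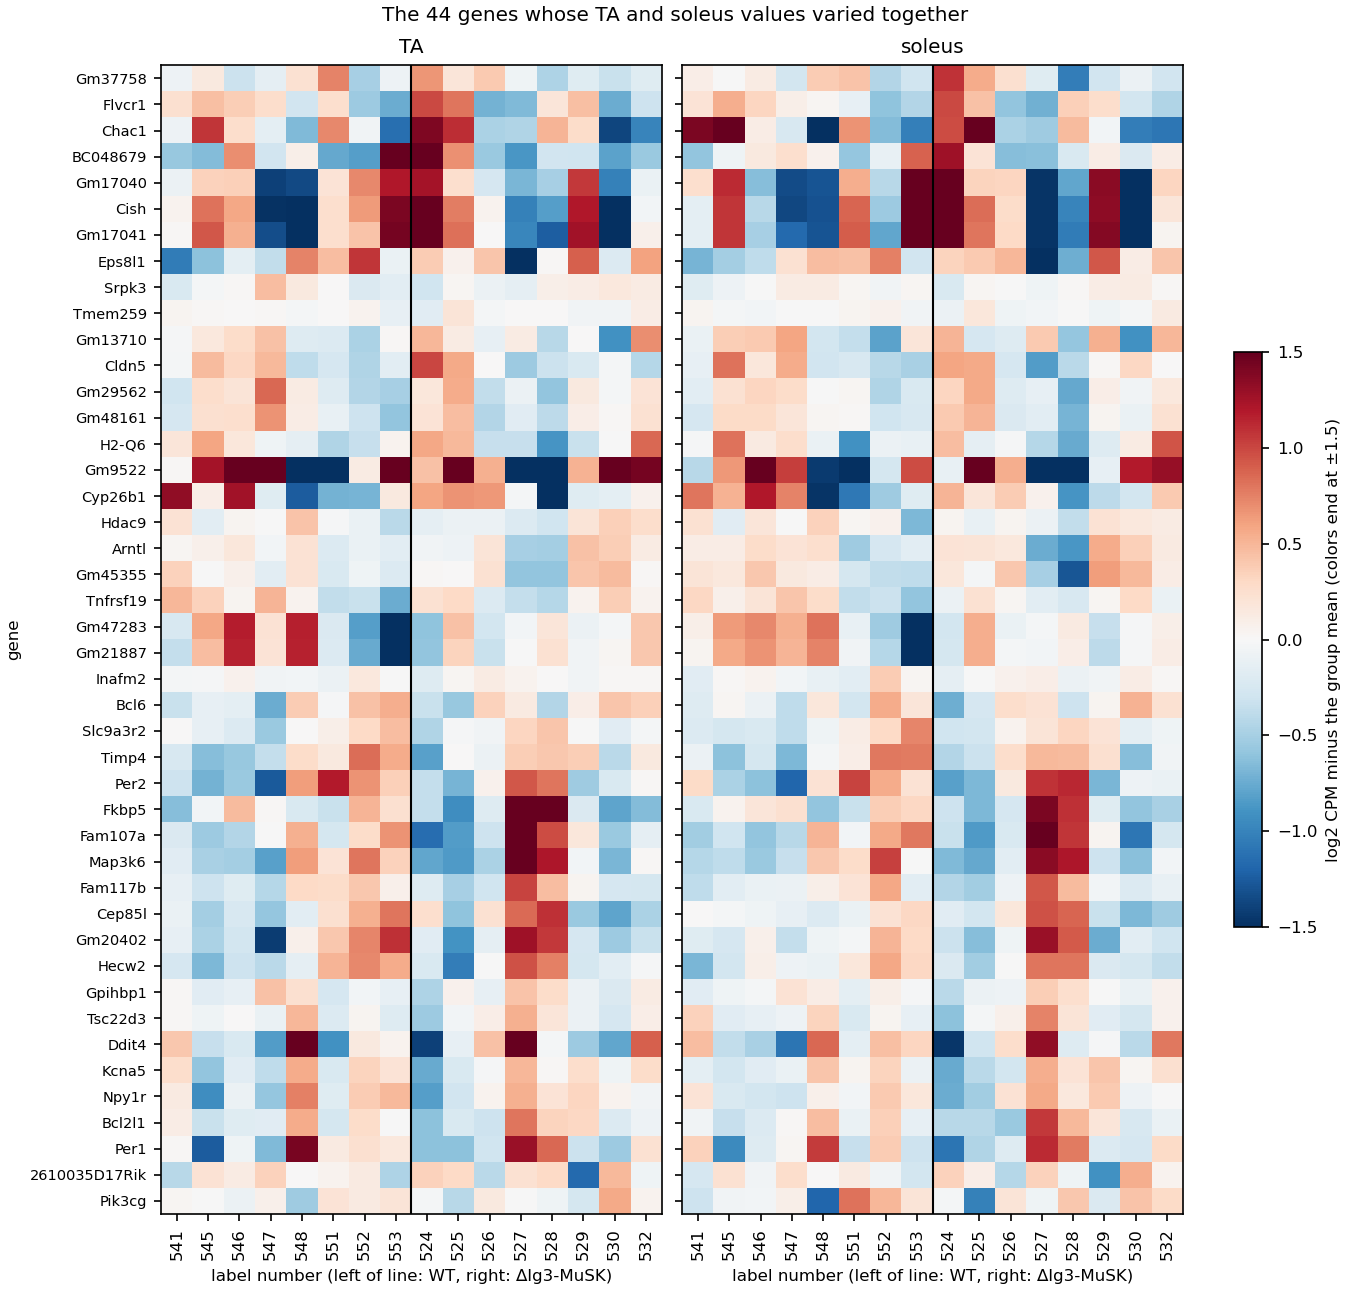
Log2 CPM minus the mean of the genotype and muscle for the 44 called genes (rows), in TA (left panel) and soleus (right panel), with the 16 label numbers as columns and colors ending at ±1.5. Columns of the same number carry a similar pattern in both panels, for which these genes were chosen. Either D3_527 or D3_528 was the highest mutant column in each panel for 17 genes and the lowest in each for 11.

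The same label number was the highest of its genotype in both muscles for 31 of the 44 genes in WT and 33 of 44 in mutants. It was the lowest in both muscles for 24 genes in WT and 31 in mutants. Such matches follow in part from the choice of these genes for high r over the same pairs. The counts are therefore a description, and they were not made for all genes. Grouped by the correlation of their deviations in both muscles (average linkage, cut at a distance of 0.5), 17 of the 44 genes formed one group. It held the repressors Per1 and Per2, the glucocorticoid-responsive genes Fkbp5, Tsc22d3 and Ddit4, and also Slc9a3r2, Timp4, Fam107a, Map3k6, Fam117b, Cep85l, Gm20402, Hecw2, Gpihbp1, Kcna5, Npy1r and Bcl2l1. These are the same 17 genes for which D3_527 or D3_528 was the highest mutant pair in each muscle. Not all of them were closely related, as Gpihbp1 had r with Per2 of 0.085 in TA and 0.373 in soleus. A group of 4 held Cish with its overlapping or neighbouring genes Gm17040 and Gm17041 and with BC048679, and Arntl was in a group of 3.

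Of the 19 genes of the core clock and clock output list, all had r above 0, 3 were called (Per2, Arntl and Per1) and 15 had a positive r at an unadjusted p under 0.05. Over all genes tested, 68.4% had r above 0, 0.232% were called and 9.23% had a positive r at an unadjusted p under 0.05. The median r of the list was 0.708, against 0.144 over all genes. It was 0.605 over the WT pairs, 0.838 over the mutant pairs and 0.580 without D3_527 and D3_528. Over all genes the same 3 medians were 0.0582, 0.276 and 0.131, so the higher value in mutants was not particular to this list. The lowest r of the list were 0.13 for Cry1, a repressor, and 0.35 for Clock, the partner of ARNTL.

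Per2 (ENSMUSG00000055866, chr1:91415982-91459324, minus strand, GRCm38) is a repressor of the clock loop. It had 1.77 CPM in the lowest, 4.49 in the median and 9.83 in the highest WT TA library. In mutant TA the lowest, median and highest libraries had 8.11, 12.3 and 25.3 CPM. In soleus Per2 ranged from 1.11 to 5.29 CPM in WT (median 3.02) and from 4.28 to 16.6 CPM in mutants (median 7.14). WT_547 was the lowest and WT_551 the highest WT pair in both muscles, and D3_527 and D3_528 were the highest mutant pairs in both. The r was 0.93 (exact permutation adjusted p = 0.00869), Spearman's rho was 0.881 (exact permutation p = 6.27e-05), and r was 0.90 without WT_547 and WT_551.

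Arntl (ENSMUSG00000055116, chr7:113207465-113314126, plus strand), the activator of the loop, was low in several pairs in which Per2 was high. In TA it ranged from 14.5 to 19.5 CPM in WT (median 16.7) and from 7.27 to 14.2 CPM in mutants (median 10.7). In soleus it ranged from 16.6 to 29.1 CPM in WT (median 25.9) and from 7.30 to 19.8 CPM in mutants (median 15.1). WT_551 was the lowest WT pair and D3_528 the lowest mutant pair in both muscles, and for Per2 both of these pairs were at the high end of their genotype. The r between muscles was 0.92 (exact permutation adjusted p = 0.0141), rho was 0.833 (exact permutation p = 0.000311), and r was 0.76 without D3_527 and D3_528. Within a muscle, the deviations of Per2 and Arntl had r of -0.517 in TA and -0.829 in soleus over the 16 libraries, given as a description.

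Per1, whose transcription answers both to the clock and to glucocorticoids, was highest in WT_548 and D3_527 in both muscles. In TA it ranged from 9.36 to 59.5 CPM in WT and from 30.7 to 115 CPM in mutants. In soleus it ranged from 11.3 to 45.2 CPM in WT and from 15.5 to 71.6 CPM in mutants. Its r was 0.88 (exact permutation adjusted p = 0.0271), with rho of 0.798 and r of 0.78 without WT_548 and D3_527.

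Other clock genes did not pass the adjusted test. Ciart, a repressor of ARNTL, was the gene just outside the threshold (r = 0.89, exact permutation adjusted p = 0.0501). Dbp, the output factor that binds D-boxes, had r of 0.80 (exact permutation adjusted p = 0.140, rho = 0.619). Its r was 0.39 without WT_551 and D3_529, the highest WT and the lowest mutant pair in both muscles. Nr1d1, the repressor of Arntl, had r of 0.68 (exact permutation adjusted p = 0.225) and r of 0.50 without WT_547 and D3_527. The r of Dbp and Nr1d1 thus rested partly on a few pairs.

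**Figure D2:**
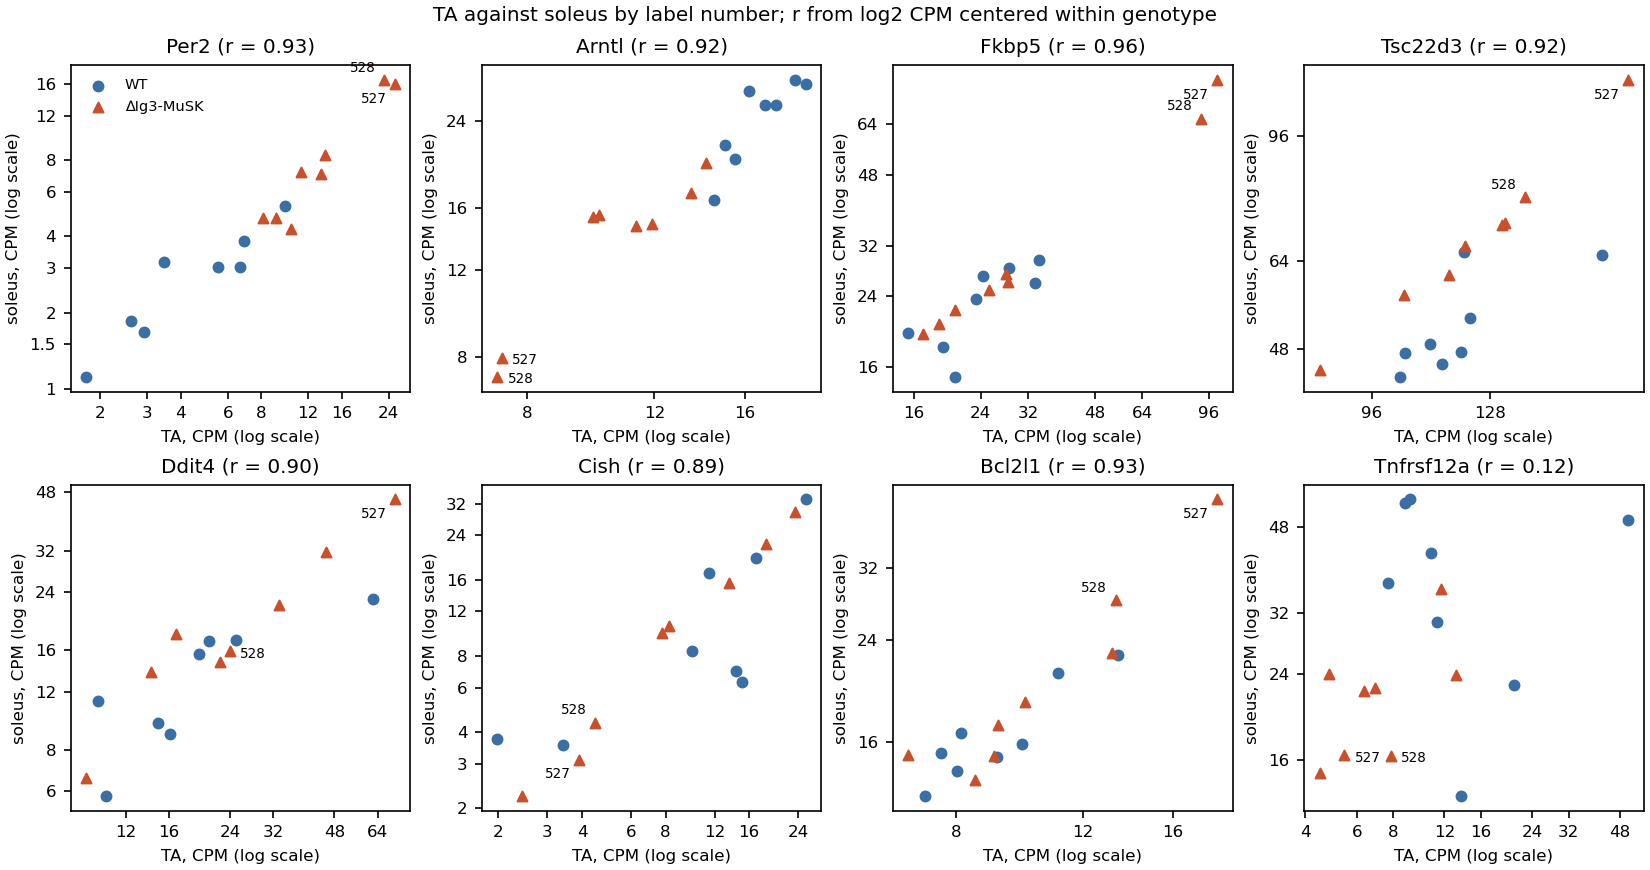
TA against soleus values in CPM, on log2-scaled axes, for single genes over the 16 label numbers, with WT and ∆Ig3-MuSK points in separate colors and r from log2 CPM centered within genotype. Per2 (r = 0.93), Arntl (r = 0.92) and Fkbp5 (r = 0.96) follow a line in which D3_527 and D3_528 lie at one end.

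Of the 16 tested genes of the glucocorticoid response list, 15 had r above 0, 3 were called (Tsc22d3, Ddit4 and Fkbp5) and 12 had a positive r at an unadjusted p under 0.05, against 68.4%, 0.232% and 9.23% of all genes. The median r was 0.694, against 0.144 over all genes. It was 0.442 over the WT pairs and 0.878 over the mutant pairs, a difference that was not tested. All genes were also higher in mutants, with medians of 0.0582 and 0.276. Without D3_527 and D3_528 the median of the list was 0.515, against 0.131 over all genes. Lcn2, a secreted acute-phase protein, had r of -0.06 and was the one member below 0.

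The 250 bases upstream of the annotated starts of these 3 genes are shown, together with Per1, which was added after its values were seen. The letters can so be read beside the r of each gene between muscles. They come from RefSeq on GRCm38.p6, run 5′ to 3′ on the gene's strand, and carry in capitals any match to a searched motif on either strand. The motifs were the E-box CACGTG, the D-box TTATGTAA or TTACGTAA, the ROR element AGGTCA, the glucocorticoid element ACANNNTGT and the CRE TGACGTCA, and longer consensus spellings of the heat shock and interferon elements, which had no match in these windows. No pair of matches overlapped. Tsc22d3 has 3 and Per1 has 2 annotated starts, of which one each is shown. The intervals are chrX:140542669-140542918 (minus strand) for Tsc22d3, chr17:28486150-28486399 (minus strand) for Fkbp5, chr10:59951771-59952020 (minus strand) for Ddit4 and chr11:69098699-69098948 (plus strand) for Per1.
Tsc22d3: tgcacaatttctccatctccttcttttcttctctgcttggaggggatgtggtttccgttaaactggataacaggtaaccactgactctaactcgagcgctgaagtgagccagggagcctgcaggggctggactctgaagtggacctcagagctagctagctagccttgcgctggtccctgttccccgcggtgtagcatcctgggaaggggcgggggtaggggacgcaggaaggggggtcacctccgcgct
Fkbp5: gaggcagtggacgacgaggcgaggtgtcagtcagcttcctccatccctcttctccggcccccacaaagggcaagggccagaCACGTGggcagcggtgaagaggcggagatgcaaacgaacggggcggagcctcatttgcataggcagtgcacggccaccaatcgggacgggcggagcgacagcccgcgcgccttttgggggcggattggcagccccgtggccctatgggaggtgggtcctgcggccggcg
Ddit4: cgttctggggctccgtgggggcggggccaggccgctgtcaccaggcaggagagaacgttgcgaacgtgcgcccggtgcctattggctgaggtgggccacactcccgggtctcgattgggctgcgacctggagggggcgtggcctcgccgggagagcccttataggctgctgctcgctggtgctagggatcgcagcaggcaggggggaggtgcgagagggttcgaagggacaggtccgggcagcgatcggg
Per1: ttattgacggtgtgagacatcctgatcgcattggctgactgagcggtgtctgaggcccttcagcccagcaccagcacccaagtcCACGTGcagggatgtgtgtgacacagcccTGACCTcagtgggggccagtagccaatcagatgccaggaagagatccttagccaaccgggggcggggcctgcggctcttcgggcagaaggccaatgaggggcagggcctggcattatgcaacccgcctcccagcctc
Fkbp5 and Per1 each hold an E-box, and Per1 also holds a ROR element, written on the opposite strand. None of the windows holds the glucocorticoid element as spelled here, which says only that these letters are not in these windows. Over 32851 promoters of the same length, 6.02% held the E-box, 14.02% the ROR element, 5.84% the glucocorticoid element, 0.931% a D-box, 1.55% the CRE, 2.98% the interferon element and 0.466% the heat shock element.

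Fkbp5 (ENSMUSG00000024222, chr17:28399094-28517527, minus strand), a co-chaperone that binds the glucocorticoid receptor complex, had the highest r of all genes tested (0.96, exact permutation adjusted p = 0.0202). In TA it ranged from 15.4 to 34.3 CPM in WT (median 23.8) and from 16.9 to 101 CPM in mutants (median 26.5). In soleus it ranged from 15.1 to 29.5 CPM in WT (median 24.7) and from 19.3 to 82.3 CPM in mutants (median 25.5). D3_527 and D3_528 held 101 and 91.7 CPM in TA and 82.3 and 66.1 CPM in soleus, whereas no other mutant library exceeded 28.4 CPM in TA or 27.2 CPM in soleus. Without these pairs r was 0.82 (exact permutation p = 0.00111, adjusted p = 0.235), and over the 8 WT pairs it was 0.78, with rho of 0.905 over all pairs. The remaining pairs thus kept a positive r over a narrower range, with the call lost after adjustment.

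Tsc22d3 (ENSMUSG00000031431, chrX:140539528-140600659, minus strand), the glucocorticoid-induced leucine zipper protein, ranged from 103 to 168 CPM in WT TA and from 84.6 to 179 CPM in mutant TA. In soleus its range was 43.9 to 65.8 CPM in WT and 44.9 to 115 CPM in mutants. WT_551 and D3_524 were the lowest and D3_527 the highest of their genotype in both muscles. The r was 0.92 (exact permutation adjusted p = 0.00869) and 0.82 without D3_524 and D3_527, with rho of 0.905. Ddit4, an inhibitor of mTORC1 that responds to stress and glucocorticoids, spanned 9.98 to 61.9 CPM in WT TA and 9.22 to 71.6 CPM in mutant TA. In soleus it spanned 5.81 to 22.8 CPM in WT and 6.61 to 45.7 CPM in mutants. WT_548 and D3_527 were highest in both muscles, and r was 0.90 (exact permutation adjusted p = 0.0192).

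Members of the list that missed the threshold included Nfkbia, the inhibitor of NF-κB, with r of 0.80 (exact permutation adjusted p = 0.110), and the transcription factors Zbtb16 (0.76), Klf15 (0.72) and Klf9 (0.71). Klf9 had r of 0.24 over the WT pairs and 0.90 over the mutant pairs. Mt2, a metallothionein, had r of -0.61 in WT and 0.94 in mutants. These differences between genotypes were not tested.

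None of the 21 tested genes of the fasting, FoxO and fat oxidation list was called, but all 21 had r above 0 and 11 had an unadjusted p under 0.05, against 68.4% and 9.23% of all genes. The median r of the list was 0.590. Pdk4, which limits glucose oxidation when fat is used, had the smallest p of the list (r = 0.85, exact permutation adjusted p = 0.0520). It ranged from 131 to 600 CPM in WT TA, from 113 to 932 CPM in mutant TA, from 607 to 1506 CPM in WT soleus and from 533 to 2188 CPM in mutant soleus. WT_547 and D3_524 were the highest and D3_532 the lowest of their genotype in both muscles, so the order of the pairs differed from that of Fkbp5. Angptl4, a lipoprotein lipase inhibitor, had r of 0.82 with the same adjusted p of 0.0520 by the exact permutation test. Foxo1 had r of 0.91 (exact permutation adjusted p = 0.126), which was 0.53 without D3_527 and D3_528, the pairs with the highest levels. Txnip, a glucose-responsive regulator of glucose uptake, had r of 0.26, and Trim63, a muscle ubiquitin ligase, had r of 0.02.

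Map3k6, a stress-responsive MAP kinase kinase kinase, had r of 0.95 (exact permutation adjusted p = 0.00982). It was highest in WT_552 and D3_527 in both muscles, and in mutants it ran from 4.59 to 25.3 CPM in TA and from 4.58 to 20.05 CPM in soleus. Bcl2l1, an inhibitor of apoptosis, had r of 0.93 (exact permutation adjusted p = 0.0134) and was lowest in WT_545 and highest in WT_548 and D3_527 in both muscles. Bcl6, a transcriptional repressor, had r of 0.83 (exact permutation adjusted p = 0.0390).

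Cish (ENSMUSG00000032578, chr9:107296026-107302784, plus strand), a feedback inhibitor of cytokine and growth hormone receptors that STAT5 induces, had one of the widest ranges. In TA it ran from 1.98 to 25.6 CPM in WT (median 12.9) and from 2.43 to 23.4 CPM in mutants (median 8.00). In soleus it ran from 3.56 to 33.3 CPM in WT (median 7.68) and from 2.24 to 29.7 CPM in mutants (median 10.2). WT_553 and D3_524 were highest and D3_530 lowest in both muscles. Fkbp5, Tsc22d3 and Ddit4, whose orders also differed from each other, were instead highest in D3_527 among the mutants in both muscles. The r was 0.89 (exact permutation adjusted p = 0.0141), rho was 0.881 (exact permutation p = 6.27e-05), and r was 0.89 without WT_548 and D3_530. Gm17041 overlaps Cish on the opposite strand by 479 bases and had r with Cish of 0.993 in TA and 0.996 in soleus, so the reads of the pair cannot be told apart in unstranded counts. Socs2, a related inhibitor named after its values were seen, had r between muscles of 0.79 (exact permutation adjusted p = 0.0958) and r with Cish of 0.811 in TA and 0.759 in soleus. Igf1, a growth hormone target chosen in the same way, had r of 0.25.

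Several called genes are known from blood vessel cells. Gpihbp1, which anchors lipoprotein lipase on capillaries, had r of 0.88 (exact permutation adjusted p = 0.0234) and was highest in WT_547 and D3_527 in both muscles. Cldn5, an endothelial tight junction protein, had r of 0.85 (exact permutation adjusted p = 0.0289) and was highest in D3_524 and lowest in D3_527 in both muscles. The orders of these genes in mutants were therefore opposite at D3_527. The 5 endothelial markers had a median r of 0.130 and none was called, and Pecam1, the endothelial adhesion molecule, had r of -0.58 (exact permutation adjusted p = 0.415).

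The rest of the genes named for the smallest p covered varied roles. Eps8l1, an actin regulator, had r of 0.91 (exact permutation adjusted p = 0.0202) and was lowest in WT_541 and D3_527 and highest in WT_552 and D3_529 in both muscles. Flvcr1, a heme and choline transporter, had r of 0.91 (exact permutation adjusted p = 0.0221) and was highest in WT_545 and D3_524 in both. Slc9a3r2, a PDZ scaffold protein, had r of 0.86, and Hdac9, a class IIa histone deacetylase, had r of 0.86, both with an exact permutation adjusted p of 0.0221. The remaining called genes with a name included Kcna5 (potassium channel, r = 0.83), Cyp26b1 (retinoic acid breakdown, r = 0.86), Chac1 (glutathione breakdown, r = 0.83), Timp4 (metalloproteinase inhibitor, r = 0.87), Npy1r (neuropeptide Y receptor, r = 0.79), Srpk3 (muscle SR protein kinase, r = 0.81) and H2-Q6 (r = 0.84), a class I histocompatibility gene whose family members are near copies, so that its counts are uncertain.

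Gm47283 and Gm21887 are annotated at the ends of the Y and X chromosomes and had r with each other of 0.996 in TA and 0.998 in soleus, so their counts may not be separable. Gm47283 had the smallest p of all genes (r = 0.93, exact permutation adjusted p = 0.00869) and ran from 7.61 to 62.9 CPM in WT TA and from 3.33 to 26.3 CPM in WT soleus. In the mutants its range was 20.99 to 43.2 CPM in TA and 14.5 to 26.9 CPM in soleus, so the widest range was among WT pairs. It was called without D3_527 and D3_528 as well.

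**Figure D3:**
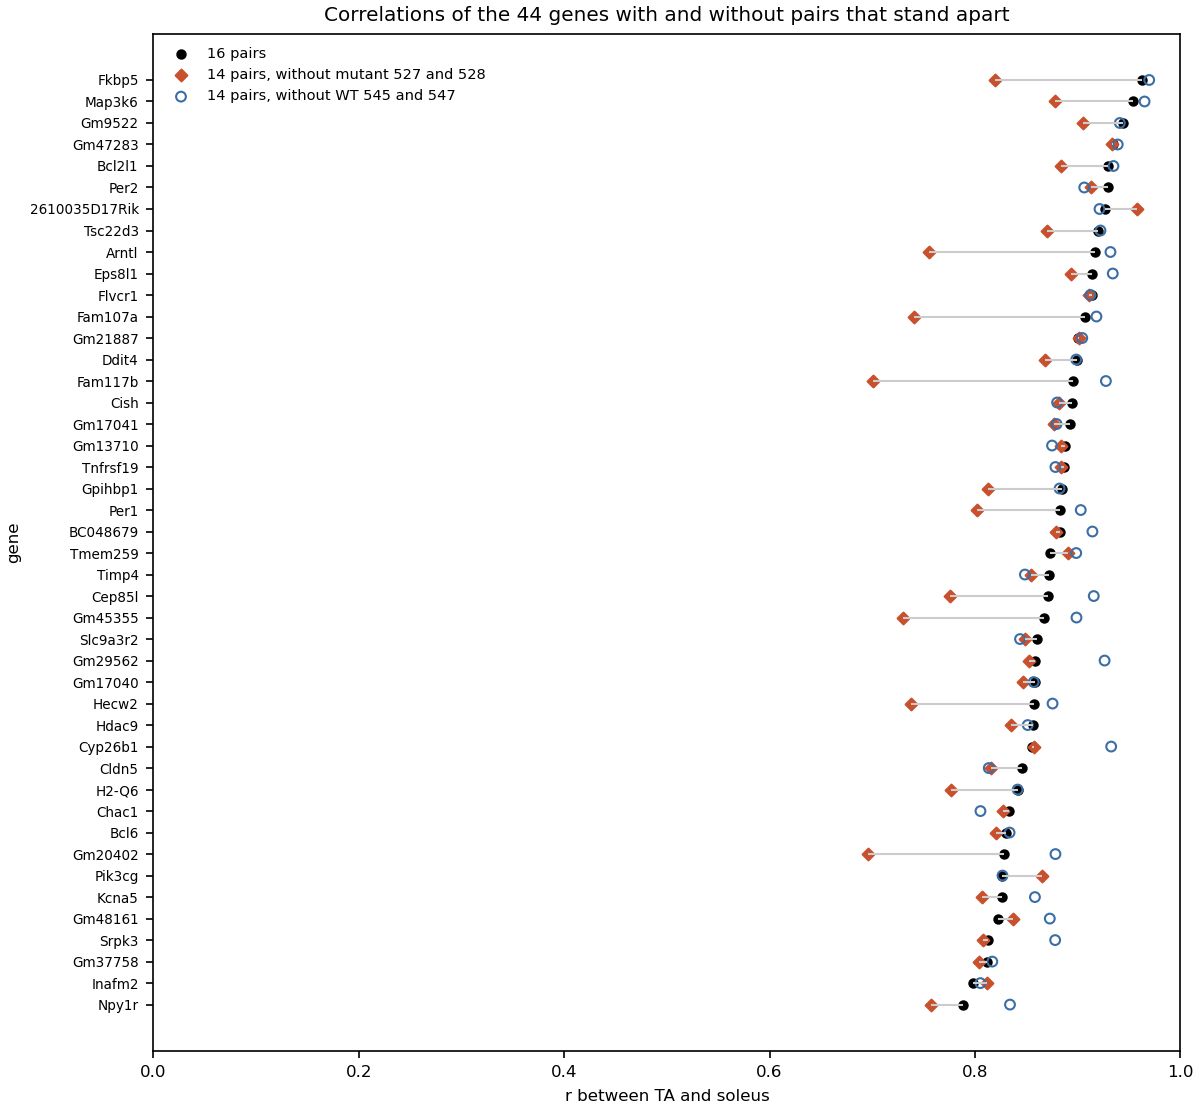
Correlation between TA and soleus (x axis) for each of the 44 called genes (rows) over all 16 pairs and without pairs that stood apart, one symbol per set. All 44 lie at 0.696 or above without D3_527 and D3_528, and at 0.805 or above without WT_545 and WT_547, both sets left out after seeing the data.

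No gene passed the test with opposite directions in the muscles. Gm16425, a processed pseudogene at 1.18 CPM or less in each library, had the most negative r (-0.82, exact permutation adjusted p = 0.0505), followed by Cd59b, a complement inhibitor (-0.81, exact permutation adjusted p = 0.0703). Without WT_545 and WT_547 the r of Cd59b was -0.55.

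Fiber type and matrix genes, and markers of several other cell types, had median r near 0. The 7 slow fiber genes had a median r of -0.0879 and the 9 fast fiber genes a median of -0.0693, with none called. Myh7 had r of -0.06 and Myh4 r of -0.24, although Myh4 ran over a wide range in soleus. The 24 collagen and matrix genes had a median r of 0.00675, and Col1a1, the main fibrillar collagen chain, had r of -0.16. Col1a1 ran from 78.9 to 290 CPM in WT TA and from 171 to 581 CPM in WT soleus, with WT_547 lowest in TA and WT_541 lowest in soleus. Medians were -0.0658 for 5 tendon genes, -0.167 for 6 Schwann cell genes, -0.0527 for 7 macrophage genes, 0.0710 for 7 MHC class II genes, 0.0753 for 7 adipocyte genes, 0.130 for 5 endothelial genes and 0.0240 for 6 B and plasma cell genes, none of them with a called member. Markers of red blood cells (5 genes), neutrophils (2 tested of 5 listed) and smooth muscle (3 genes) had higher medians of 0.542, 0.666 and 0.312. These are few genes, and the neutrophil gene S100a9 was at 1.365 CPM or less. The red blood cell median was 0.149 over the WT pairs and 0.734 over the mutant pairs. In mutant soleus Hbb-bs reached 698 CPM in D3_532, against a median of 236.

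Among genes with at least 5 CPM in both muscles and an r within 0.2 of 0, those with the widest spread were Retnla (r = 0.12), a macrophage-derived secreted protein, Tnfrsf12a (0.12), the TWEAK receptor, Igfn1 (0.09), a muscle protein, Cfd (-0.08), an adipocyte protease, Adamts8 (-0.09), a metalloproteinase, and Col12a1 (-0.02), a collagen. Tnfrsf12a ran from 7.68 CPM in WT_551 to 51.3 CPM in WT_547 in TA, whereas in soleus it was lowest in WT_541 (13.5 CPM) and highest in WT_548 (54.6 CPM). A wide spread within a muscle was thus not enough for covariation.

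Neither the targeted gene nor the members of its pathway lists passed the test. Musk had r of 0.04 (exact permutation adjusted p = 0.969), with 2.74 to 5.26 CPM in WT TA, 2.51 to 3.83 CPM in mutant TA, 12.9 to 19.2 CPM in WT soleus and 8.42 to 18.4 CPM in mutant soleus. The groups overlapped in each muscle. The 15 neuromuscular synapse genes had a median r of 0.255 with none called. Dok7, the adaptor that activates MuSK, had the largest r among them (0.81, exact permutation adjusted p = 0.0864), with D3_527 highest in both muscles. The 22 BMP signaling genes had a median r of 0.0930 and the 28 IGF1-Akt-mTOR genes 0.152, against 0.144 for all genes, and none was called. At an unadjusted p under 0.05, 4 of the 22 and 6 of the 28 had positive r, against 9.23% of all genes. Within these lists Bmp4, a BMP ligand, had r of 0.66 and Pik3r1, the regulatory subunit of PI3-kinase, had r of 0.74 (exact permutation adjusted p = 0.0696).

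**Figure D4:**
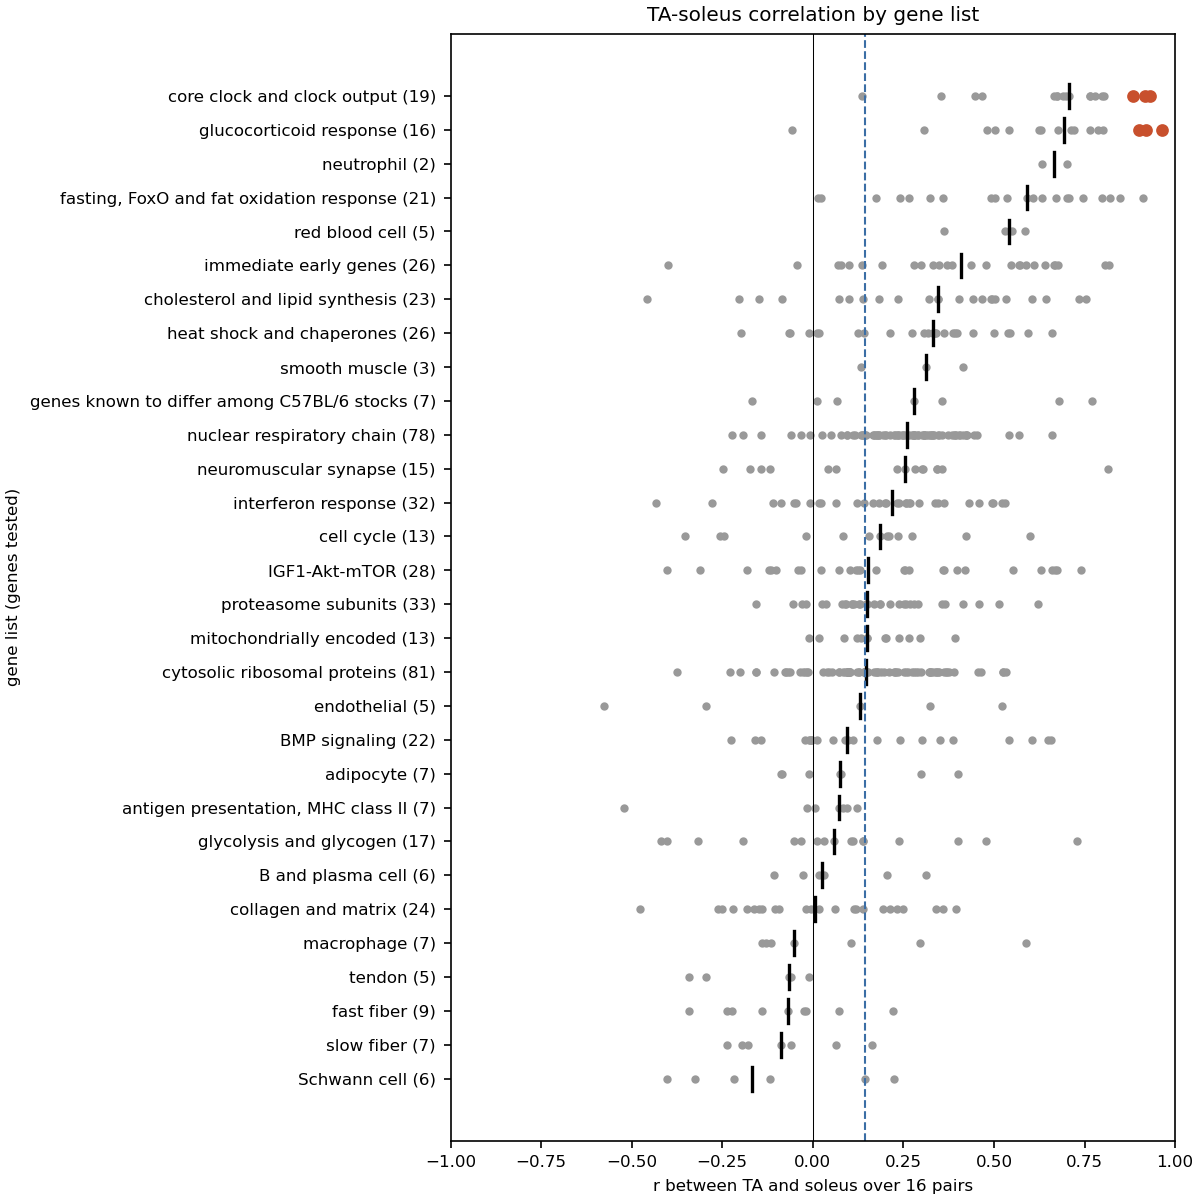
Correlation between TA and soleus over 16 pairs (x axis) for the genes of each list (rows, with the number tested), with the median of each list marked. Clock (median 0.708), glucocorticoid (0.694) and fasting genes (0.590) lie to the right of all genes (0.144), and fiber type and matrix genes lie around 0.

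The other lists had no called member either. The 26 immediate early genes had a median r of 0.409, with 9 at an unadjusted p under 0.05 and positive r (9.23% of all genes). Within them Maff, a small MAF factor, reached 0.82 (exact permutation adjusted p = 0.0696) and Fos had r of 0.33. Of the 5 red blood cell genes 4 had an unadjusted p under 0.05, led by Hbb-bs, a beta globin (0.59), as did both tested neutrophil genes, led by S100a9 (0.70). The part of blood left in each muscle in these values was not tested. Medians were 0.333 for 26 heat shock genes (Hspa1b 0.33), 0.345 for 23 cholesterol and lipid genes (Sqle 0.75, exact permutation adjusted p = 0.0772), 0.217 for 32 interferon genes (Ifit3 -0.05), 0.184 for 13 cell cycle genes, 0.0573 for 17 glycolysis and glycogen genes and 0.280 for 7 genes that differ among C57BL/6 stocks.

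Genes of large housekeeping complexes had a lower median r without D3_525. The median r was 0.146 for 81 cytosolic ribosomal protein genes, 0.260 for 78 nuclear respiratory chain genes, 0.151 for 33 proteasome genes and 0.150 for 13 mitochondrially encoded genes. Without D3_525 the medians were -0.0530, 0.101, 0.0178 and 0.0892, against 0.0850 for all genes. Without WT_545 and WT_547, whose TA libraries stood apart and which were left out after seeing the data, the first 3 medians were 0.388, 0.441 and 0.385, against 0.205 for all genes.

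Whole profiles showed the same weak relation. Each library's deviations over all 18931 genes, divided by each gene's SD, were correlated between muscles. Same-numbered libraries had a mean r of 0.133 ± 0.130 (SD, n = 16), against -0.0173 for the 112 combinations of other numbers within a genotype, and the exact one-sided permutation p was 2.1e-05. The r was above 0 in 14 of 16 pairs and over 0.1 in 9, from -0.0105 in WT_541 to 0.501 in D3_525. Among the 8 libraries of the other muscle and the same genotype, a TA library was most like its own soleus in 8 of 16 pairs, and a soleus library most like its own TA in 6 of 16. With no relation, each of the 8 libraries would be equally likely to be the most alike. Of the WT pairs, only WT_548 and WT_552 were among the former and only WT_548 and WT_553 among the latter. The mean was 0.0644 over the WT pairs (exact permutation p = 0.0552) and 0.201 over the mutant pairs, a difference that was not tested. Without D3_525 the mean was 0.0988.

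**Figure D5:**
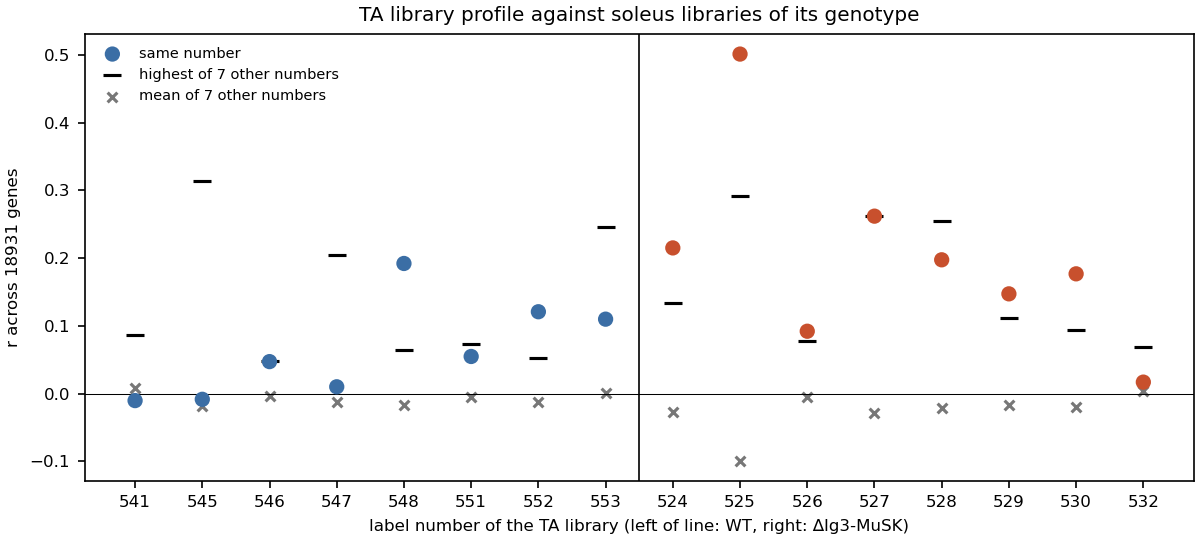
Correlation across 18931 genes of each TA library with the soleus libraries of its genotype (y axis), by the label number of the TA library (x axis), with the same-numbered soleus marked apart from the others. The same-numbered value is above 0 in 14 of 16 pairs and highest in D3_525 (0.501).

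The main axis of variation within a muscle did not pass the test of covariation. The first principal component held 34.7% of the variance in TA and 20.3% in soleus. The scores of the 2 muscles had r of 0.318 (exact permutation p = 0.235) and rho of 0.429 (exact permutation p = 0.116), with r of 0.688 without WT_545 and WT_547, whose TA libraries had the highest and the next highest scores. Of 5 technical measures, which were the total count, the normalization factor, the share of mitochondrially encoded counts, the share of the 10 most abundant genes and the number of genes detected, none passed the test between muscles, with r of -0.0676 to 0.296 and an exact permutation p adjusted over the 5 of 0.919 in each case. Without 2 pairs that stood apart for each measure, r ran from -0.211 for the number of genes detected to 0.564 for the mitochondrially encoded share. These values were not tested. The part of the 5 measures in the correlations of single genes was not tested beyond the alternative that removed the total count.

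The genotype was compared in each muscle over all 18 libraries with edgeR's quasi-likelihood test (adjusted p under 0.05 and at least 1.2-fold). Of the 44 genes, none was called in TA, where 0.0158% of all genes were, and 12 had an unadjusted p under 0.05 (27.3%, against 24.7% of all genes). In soleus 3 were called (Per2, Arntl and Gm45355, which overlaps Arntl), where 0.924% of all genes were, and 13 had an unadjusted p under 0.05 (29.5%, against 18.6%). Per2 was higher in mutant soleus by 1.42 on the log2 scale (edgeR adjusted p = 0.0339), and its difference in TA was 1.44 (edgeR adjusted p = 0.0788). Arntl was lower in mutant soleus, with a log2 difference of -0.78 (edgeR adjusted p = 0.0291), and its difference in TA was -0.57 (edgeR adjusted p = 0.135). The label numbers of WT and mutants do not interleave, so the genotype and whatever the numbers follow cannot be told apart.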

How the data were processed

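RNA from whole TA and soleus, isolated with a column kit, was made into libraries that do not mark strand. The authors trimmed reads (Trimmomatic), aligned them to the mouse genome (GSNAP; build GRCm38, also called mm10) and counted them per gene (HTSeq), and deposited raw counts for 51912 genes in one table per muscle. All columns were matched to samples by the numbers in the labels.

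Genes were kept where edgeR's filterByExpr passed them in both muscles (minimum count 10, minimum total count 15, all 18 libraries of a muscle), which left 18931. Log2 CPM used TMM factors and a prior count of 2, and was centered within genotype and muscle. Pearson's r over the 16 same-numbered pairs was tested by exact permutation within genotype (40320 orders in each genotype), two-sided, with Benjamini-Hochberg adjustment over all genes. Whole profiles were tested one-sided. Genotype effects came from edgeR's quasi-likelihood test in each muscle. Gene positions came from GENCODE M21 (GRCm38) and promoters from RefSeq. The versions were R 4.3.3, edgeR 4.0.16, Python 3.11.15, numpy 2.4.6, scipy 1.17.1 and numba 0.67.0.

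Named genes were the 12 named genes called with the smallest p, the 2 most negative, from each of the 30 gene lists the 2 called members with the smallest p or else the member with the largest absolute r, 6 wide but unrelated genes (at least 5 CPM in both muscles and absolute r under 0.2) and a set of genes of interest. The other called genes, and single genes singled out in the text, were added after their values were seen. The pairs, lists and rules were chosen with earlier results of these data known. The test was checked on simulated data. Alternatives varied the prior count, scaling, filter, ranks, test, pairs left out, the removal of the first principal component or of depth, and pairing by the replicate number in the titles. Depth per library was 43492062 counts or more. The part of counting error in r was not tested. By the mean level in the muscle where a gene was lower, the median r was 0.127 for genes at 1 to 5 CPM and 0.188 for genes over 100 CPM. The profiles cannot settle for each pair whether the numbers pair the samples. In 9 of 16 same-numbered pairs r was over 0.1, but libraries of different numbers also passed 0.1. The TA library of WT_545 had r of 0.314 with a soleus of another number and -0.00858 with its own. The mean r was 0.133 for same numbers and -0.0173 for other numbers within a genotype (SD 0.123).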

Additional observations from a re-analysis of the deposited data

Results flagged for a closer look

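In 32 of 380 groups of 8 libraries of the named genes, the gap between the highest or lowest library and the next, divided by the range of the group in log2 CPM, was above Dixon's 95% critical value for 8 libraries. Chance flags about 1 in 20 groups. Among the genes called, the highest library stood apart for Tsc22d3 in WT TA (WT_548, 0.654), Inafm2 in WT soleus (WT_552, 0.586) and BC048679 in mutant TA and mutant soleus (D3_524 in both, 0.565 and 0.564). The lowest stood apart for Gm47283 and Gm21887 in WT soleus (WT_553, 0.546 and 0.577), Eps8l1 in mutant TA (D3_527, 0.639), Cyp26b1 in mutant TA (D3_528, 0.630), and Pik3cg in WT TA (WT_548, 0.595) and in mutant soleus (D3_525, 0.547). BC048679 was flagged for the same pair in both muscles.

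Among genes not called, mutant TA D3_525 was highest for Cox7a2 (0.704), Psmd7 (0.653), Rpl11 (0.566) and Musk (0.556) and lowest for Fmod (0.662), and mutant soleus D3_525 was lowest for Cd163 (0.566). Mutant soleus D3_527 was lowest for Gm16425 (0.544), Nr1d1 (0.555) and Pmp22 (0.574). Mutant TA D3_529 was lowest for Dbp (0.624), mutant soleus D3_529 for Myh4 (0.5261), mutant soleus D3_530 for Igfn1 (0.531), and mutant TA D3_524 was highest for Pecam1 (0.528). In WT, WT_551 was lowest for Entpd4 in TA (0.562) and soleus (0.704) and highest for H2-DMa in soleus (0.779). WT_553 was lowest for Sqle in soleus (0.742) and Igkc in TA (0.540) and highest for Fmod (0.549) and Hspa1b (0.579) in TA. WT TA WT_547 was lowest for Nr1d1 (0.607) and WT soleus WT_541 was highest for Cfd (0.626). Entpd4, an enzyme that removes phosphate from nucleotides, was thus flagged for the same pair in both muscles. Its r of 0.77 was 0.24 without WT_551 and WT_552.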

How the results depend on the processing

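The count of 44 genes with positive r stayed within 1.5 times with prior counts of 0.5 (44) and 8 (49), RLE (46) or upper-quartile scaling (47), at least 10 counts in every library (59), the first principal component removed (37, of which 11 were among the 44) and the total count regressed out (30, of which 20 were). It was 24 without a filter on low counts, where 33828 genes were tested, 9 by Spearman ranks (8 of them among the 44) and 90 by a parametric p (42 among the 44). Leaving out single pairs gave 16 to 56 (24 without WT_548, 25 without WT_551, 23 without WT_552, 28 without D3_524, 18 without D3_527, 16 without D3_528, 17 without D3_529 and 24 without D3_532), and leaving out D3_527 and D3_528, added after seeing the data, gave 3. Leaving out WT_545 and WT_547, also added after seeing the data, gave 60, of which 30 were among the 44. The count with negative r was 1 (Gm16425, or Dzip1l where the first component was removed) with a prior count of 8, at least 10 counts in every library, the parametric p or the first component removed, and 0 to 1 without single pairs. Pairing by the replicate number in the titles, a replicate block of 18 pairs of which 8 share the label number, called 0 genes (523 with positive r at an unadjusted p under 0.05). Under that pairing r changed sign for 2610035D17Rik (-0.42), Tmem259 (-0.38) and Gm37758 (-0.0331), and the mean profile correlation was 0.0116. The mean profile correlation was 0.0644 for WT alone, added after seeing the data, and 0.0988 to 0.145 without single pairs. The r of the principal component scores was between 0.106 and 0.511 without single pairs. Causes of these differences were not tested.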

Other observations

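Gm29562, a noncoding RNA on chromosome 9, and Gm48161, a sense-intronic transcript on chromosome 13, were both called (r of 0.86 and 0.82 between muscles) and had r with each other of 0.974 in TA and 0.977 in soleus over the 16 libraries, although they lie on different chromosomes. Arntl and Gm45355, which overlap on opposite strands, had r of 0.938 in TA and 0.916 in soleus. Foxo1 and Gm20402, an antisense transcript that overlaps Foxo1, had r of 0.928 and 0.921, so Gm20402 was called while Foxo1 was not. Dbp and Sphk2 had r of 0.913 in TA and 0.970 in soleus. These pairs were chosen after their values were seen and are given as descriptions.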
